A study of Sus scrofa with 80 samples.

Results

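Transcript levels in the gonads of young pigs were compared between the sexes, with 9 testes set against 7 ovaries. The arrays were chosen by their titles, which name the gonad and give the sex of the animal as a letter, and they are 16 of the 80 arrays of the series. The study profiled 5 tissues of 16 pigs of 4 breeds on the Affymetrix Porcine GeneChip, with 1 array per animal and tissue, so each gonad came from a different pig and every p-value measures the spread between animals. The testes came from 2 Large White, 2 Duroc, 2 Iberian and 3 Youli males. The ovaries came from 2 Large White, 2 Duroc, 2 Iberian and 1 Youli females. Mean age at slaughter was 87 days in Large White, 83 days in Duroc, 80 days in Youli and 89 days in Iberian pigs, and mean weight was 27.2, 23.1, 18.9 and 17.4 kg in the same order. All pigs were housed together, ate the same diet and were fasted before slaughter, none received a treatment, and only a part of each gonad was taken for RNA. Values are log2 signals, and a difference is the testis minus the ovary in log2 units, so that positive values are higher in testes.

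Before puberty the testis holds cords of Sertoli cells around spermatogonia, with Leydig cells between the cords that make androgens from cholesterol. The ovary of the same age holds follicles, in which granulosa cells surround an oocyte arrested in meiosis, within a stroma of fibroblasts and smooth muscle. Leydig cells of the pig are known for an abundant steroid output that includes sulfated steroids. Whole pieces of gonad were measured, so fewer cells of a type and less RNA per cell cannot be told apart in any of the differences below.

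The sexes separated as labelled at EIF1AY, a Y-linked translation initiation factor, which lay between 8.74 and 9.33 in the testes and between 2.64 and 2.90 in the ovaries. Array medians were 4.76 to 4.93 in the testes and 4.91 to 5.04 in the ovaries.

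Several gonads stood apart from the others of their sex. In the ovary of Iberian female 25, 12 of the 15 oocyte genes lay under a log2 value of 4, against 2 of 15 in each of the other 6 ovaries, and its mean over the oocyte genes was 3.55, against 7.72 to 9.23 in the others. The same ovary had 21 of 22 genes of reproductive tract epithelium above a value of 6, and the ovaries of Large White females 5 and 6 had 14 and 18, while the other 4 ovaries had 2 to 5 and the testes 0 to 3. The ovary of Iberian female 22 had the highest ovarian values of STAR and CYP17A1, described below. The tissue of Iberian female 25 lacked the defining transcripts of an ovary, and values without it are given beside many of the results below. Among the testes, those of Large White male 2 and Youli males 19 and 20 had 15, 17 and 15 of the 19 spermatid and sperm genes above a value of 6, against 1 to 7 in the other 6. PRM1, a protamine that packs sperm DNA, lay at 9.17, 12.03 and 11.88 in these 3 testes and at 2.33 to 2.47 in the other testes. The study judged plasma estradiol to be prepubertal and found no breed difference in testosterone. The transcripts of haploid germ cells in these 3 males stand beside that description, and the stage of each testis was not tested. PRM1 is named here for its values and not by the rule that chose most of the other genes.

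**Figure D1:**
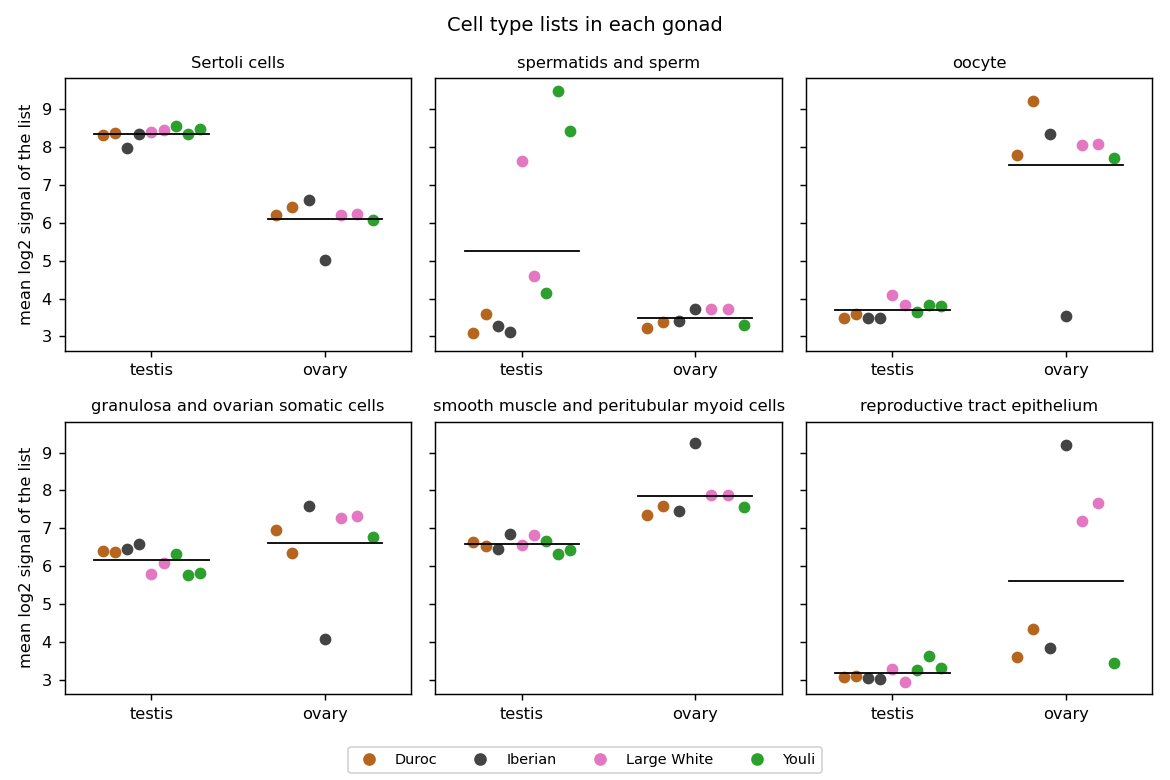
Mean log2 value over the genes of 6 cell type lists in each of the 16 gonads, testes at the left and ovaries at the right, with 1 point per array and breeds in 4 colours. Iberian ovary 25 lies at 3.55 for the oocyte list and 9.21 for the tract epithelium list, and 3 testes lie at 7.64, 9.49 and 8.43 for the spermatid list.

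The sexes differed in a large part of the transcriptome. Of 23999 probesets tested with limma, with breed as a covariate, 3608 (15.0%) were higher in testes and 3173 (13.2%) were lower in testes, that is, higher in ovaries, at a Benjamini-Hochberg adjusted p under 0.05. At the level of genes, where the brightest probeset stands for each of 6765 symbols, 1329 (19.6%) were higher in testes and 1123 (16.6%) were higher in ovaries. Without the ovary of Iberian female 25 these shares were 21.1% and 18.4%. Among the genes called, the median difference was 0.84 for those higher in testes and -1.02 for those lower in testes, and 76 and 90 genes of the 2 directions differed by more than 3. When each array was centred on its own median, the median difference of all probesets was 0.121 in place of 0.017, and 5356 probesets were then higher and 2644 lower in testes, so that the share of higher calls was 67.0% in place of 53.2%. The gene counts of every list below are read against 19.6% higher and 16.6% lower, and against a median difference of 0.02 over all genes. Of the 6765 genes, 484 lay higher and 368 lower in testes without overlap between the sexes. Most genes named below as not overlapping were picked for large differences, for which a lack of overlap is likely.

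The 10 genes with the largest excess in testes included enzymes and secreted proteins. CBR1, a carbonyl reductase, had a lowest value of 13.37, a median of 14.14 and a highest of 14.30 in testes, against 2.28, 2.35 and 2.42 in ovaries. The 2 sexes did not overlap, and since every ovary lay under the background limit of 4, the excess is a bound of at least 976-fold (adjusted p = 6.44e-14). SULT2A1, which sulfates hydroxysteroids such as dehydroepiandrosterone, ranged from 11.05 over a median of 11.96 to 13.02 in testes and from 1.94 over 1.99 to 2.19 in ovaries, at least 258-fold higher in testes (adjusted p = 4.78e-11). GLB1L3, a galactosidase-like protein, had 9.16, 11.97 and 13.31 as lowest, median and highest value in testes and 1.85, 1.91 and 1.94 in ovaries, at least 198-fold higher (adjusted p = 8.25e-08). FATE1, first known from fetal and adult testis, had 9.71, 10.40 and 10.70 in testes and 1.51, 1.57 and 1.58 in ovaries, at least 74.4-fold higher (adjusted p = 6.82e-14). The testis values of these 4 genes lay far above every ovary, in all 4 breeds.

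The other 6 genes of that end were measurable in at least 1 ovary. CYP17A1, whose enzyme turns pregnenolone and progesterone into androgen precursors, had 10.87, 12.12 and 13.59 in testes and 2.19, 2.25 and 7.70 in ovaries, a difference of 8.99 ± 0.66 (standard error, adjusted p = 1.37e-06). LOC100623656, an uncharacterised locus, differed by 10.32 ± 0.72 (adjusted p = 9.17e-07), with 11.72 to 13.95 in testes and 1.96 to 8.13 in ovaries. DHRS4, a peroxisomal carbonyl and retinal reductase, had 13.48, 14.14 and 14.42 in testes and 5.91, 6.76 and 10.48 in ovaries, a difference of 7.05 ± 0.46 (adjusted p = 5.65e-07). In each of these 3 genes the highest ovary was that of Iberian female 22. SERPINA5, the protein C inhibitor that also acts in male reproduction, lay between 12.20 and 13.08 in testes and between 2.18 and 8.35 in ovaries (7.98 ± 0.73, adjusted p = 7.96e-06). AGT, the angiotensin precursor, lay between 10.81 and 12.90 in testes and between 1.88 and 5.81 in ovaries (7.84 ± 0.60, adjusted p = 1.86e-06). STAR, which carries cholesterol into the mitochondrion, had 10.33, 12.08 and 13.64 in testes and 2.32, 3.52 and 13.36 in ovaries (7.14 ± 1.36, adjusted p = 0.00186). It was the only one of the 10 whose sexes overlapped, through the ovary of Iberian female 22 at 13.36.

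**Figure D2:**
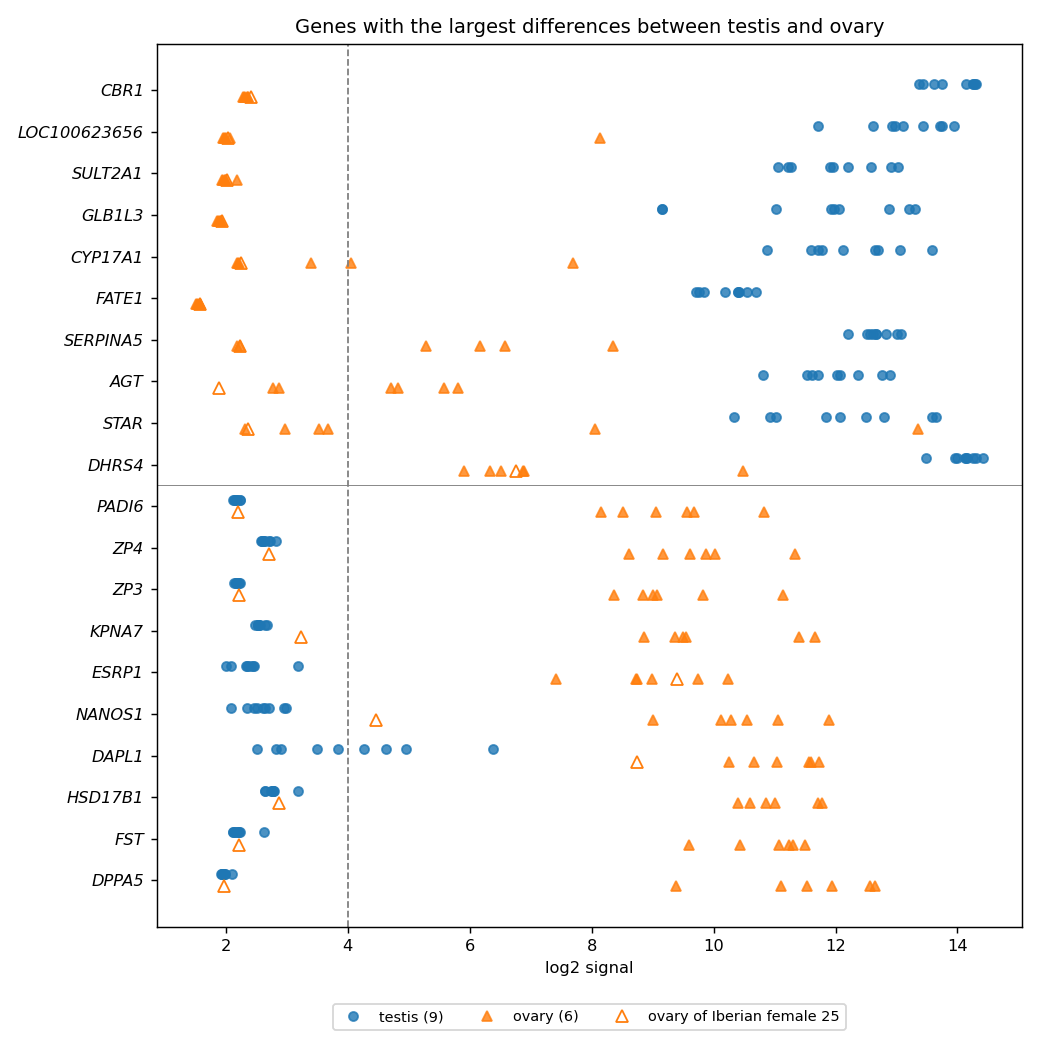
Log2 value in each gonad of the 10 genes with the largest excess in testes (upper rows) and the 10 with the largest excess in ovaries (lower rows). Testes are circles, ovaries are triangles, open triangles mark the ovary of Iberian female 25, and the dashed line at 4 is the background limit; CBR1 lies at 13.37 to 14.30 in testes and 2.28 to 2.42 in ovaries.

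The opposite end was held mostly by oocyte and follicle genes, with DAPL1 and ESRP1 apart from them. DPPA5, an RNA-binding protein of germ cells and stem cells, had 1.92, 1.96 and 2.10 in testes and 1.97, 11.54 and 12.65 in ovaries, with the low value in Iberian female 25. Its excess in ovaries was at least 71.8-fold over 7 ovaries (adjusted p = 0.000439) and at least 185-fold over the other 6 (adjusted p = 2.23e-08). FST, follistatin, which binds activin and is made by granulosa cells, had 2.12, 2.20 and 2.62 in testes and 2.22, 11.07 and 11.50 in ovaries, at least 49.3-fold higher in ovaries (adjusted p = 0.000333). HSD17B1, the granulosa enzyme that turns estrone into estradiol, had 2.64, 2.77 and 3.19 in testes and 2.88, 10.86 and 11.78 in ovaries, at least 59.3-fold higher in ovaries (adjusted p = 0.000223). For both genes the lowest ovary was again Iberian female 25, without which the bounds were at least 116-fold and 133-fold. DAPL1, a death-associated protein homologue, had 2.51, 3.84 and 6.38 in testes and 8.74, 11.04 and 11.73 in ovaries (-7.01 ± 0.60, adjusted p = 4.3e-06). ESRP1, an epithelial splicing regulator, had 2.0, 2.36 and 3.18 in testes and 7.41, 8.99 and 10.23 in ovaries, at least 32.7-fold higher in ovaries (adjusted p = 6.22e-08). These last 2 genes were high in all 7 ovaries, at 8.74 and 9.40 in Iberian ovary 25, which lacked the defining transcripts of an ovary. ESRP1 belongs to the list of keratins and epithelial proteins. NANOS1, KPNA7, ZP3, ZP4 and PADI6 completed the 10. Every testis lay under 4 for all of them, and the bounds ran from at least 19.5-fold higher in ovaries for PADI6 to at least 49.3-fold for NANOS1.

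The oocyte list as a whole was lower in testes. Of 15 genes measured, 0 were higher and 12 were lower, with a median difference of -4.42, or -5.07 without Iberian female 25. GDF9, the oocyte growth factor, had 4.01, 4.50 and 4.81 in testes and 5.32, 9.68 and 11.28 in ovaries (-4.67 ± 0.66, adjusted p = 0.000237). BMP15, its partner, had 1.90, 1.93 and 1.98 in testes and 1.97, 6.54 and 9.60 in ovaries, at least 5.09-fold higher in ovaries (adjusted p = 0.000542). Without Iberian ovary 25 the BMP15 bound was 8.43-fold (limma adjusted p = 5.29e-06). Among 27 granulosa and ovarian somatic genes 4 were higher and 8 lower in testes, and the mean over the list was 5.76 to 6.58 in testes, 4.07 in Iberian ovary 25 and 6.35 to 7.58 in the other ovaries. SERPINE2, a protease inhibitor of granulosa cells, had 7.48, 7.99 and 8.55 in testes against 2.99, 12.94 and 13.87 in ovaries. Its difference did not pass the threshold in the main fit (-3.62 ± 1.29, adjusted p = 0.0548). Without Iberian ovary 25 it passed (-5.01 ± 0.23, adjusted p = 5.9e-08). With that ovary kept, it passed when the breed term (limma adjusted p = 0.0402) or dim probesets (0.0261) were left out. It also passed with an intensity trend and robust prior (0.0497), with array weights (0.000553) and without Iberian testis 24 (0.0488). INHA, the alpha subunit of inhibin, was high in both sexes, with a median of 10.15 in testes and 11.17 in ovaries, and its difference of 0.12 ± 1.27 did not pass the test (adjusted p = 0.951). Without Iberian ovary 25, where INHA lay at 1.54, the difference was -1.19 ± 0.44 (adjusted p = 0.0621).

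Steroid synthesis held several of the largest differences in favour of the testes. Of 28 genes of the pathway, 11 were higher and 4 lower in testes, with a median difference of 1.75, and without Iberian ovary 25 the counts were 13 and 4 and the median difference 1.05. Besides CBR1, CYP17A1 and STAR, the 4 largest included HSD11B2, which inactivates glucocorticoids, with 7.41, 9.48 and 10.53 in testes and 2.12, 2.74 and 5.85 in ovaries (6.24 ± 0.41, adjusted p = 5.15e-07). CYP11A1, the cholesterol side-chain cleavage enzyme, and CYB5A, the cytochrome that favours androgen output of CYP17A1, are given here for their place in the pathway, chosen after their values were seen. CYP11A1 lay between 10.57 and 13.04 in testes and between 2.08 and 11.46 in ovaries (5.88 ± 1.32, adjusted p = 0.00526), and CYB5A between 14.21 and 14.94 in testes and between 11.05 and 13 in ovaries (2.82 ± 0.19, adjusted p = 6.68e-07). HSD3B1, another gene of the pathway chosen after its values were seen, had medians of 6.31 in testes and 6.70 in ovaries. Its difference of -0.45 ± 1.09 did not pass the test (limma adjusted p = 0.799), and its highest ovary was Iberian female 22 at 11.70. Without Iberian ovary 25 the HSD3B1 difference was -1.38 ± 0.74 (limma adjusted p = 0.2). INSL3, the Leydig cell peptide of testis descent, was bright in both sexes, at 13.88 to 14.67 in testes and 7.79 to 11.64 in 6 ovaries, with 2.03 in Iberian ovary 25 (5.65 ± 1.10, adjusted p = 0.0021). HSD17B4, a peroxisomal dehydrogenase, was 2.45 ± 0.27 higher in testes (adjusted p = 3.16e-05).

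The 4 genes of the pathway that were lower in testes are steps of their own. HSD17B1 is described above, TSPO, the mitochondrial translocator protein, had 4.77 to 6.14 in testes and 6.93 to 8.76 in ovaries (-2.31 ± 0.24, adjusted p = 2.37e-05), HSD17B7 differed by -1.70 ± 0.33 (adjusted p = 0.00223) and HSD11B1, which regenerates glucocorticoids, by -0.76 ± 0.22 (adjusted p = 0.0221, and 0.0508 without Large White ovary 5). HSD11B1 also lost its call without the 3 ovaries that held tract epithelium transcripts (-0.29, limma adjusted p = 0.149). Without the 3 testes that held spermatid transcripts it was again not called (-0.7, limma adjusted p = 0.0852). Others did not differ beyond their spread. LHCGR, the luteinising hormone receptor, had a median of 10.20 in testes and 9.81 in ovaries (2.15 ± 1.21, adjusted p = 0.226). CYP19A3, 1 of the aromatase genes of the pig, had 9.72, 12.45 and 14.08 in testes and 3.27, 9.78 and 12.34 in ovaries (2.82 ± 1.30, adjusted p = 0.135), and the sexes overlapped. The 3 aromatase genes of the pig are near copies, so signal may be shared between their probes. Within breeds the CYP19A3 difference was 3.49 in Duroc, 6.66 in Iberian, -2.12 in Large White and 3.41 in Youli, and without the 3 ovaries that held tract epithelium transcripts it was 3.22 (adjusted p = 0.00106).

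**Figure D3:**
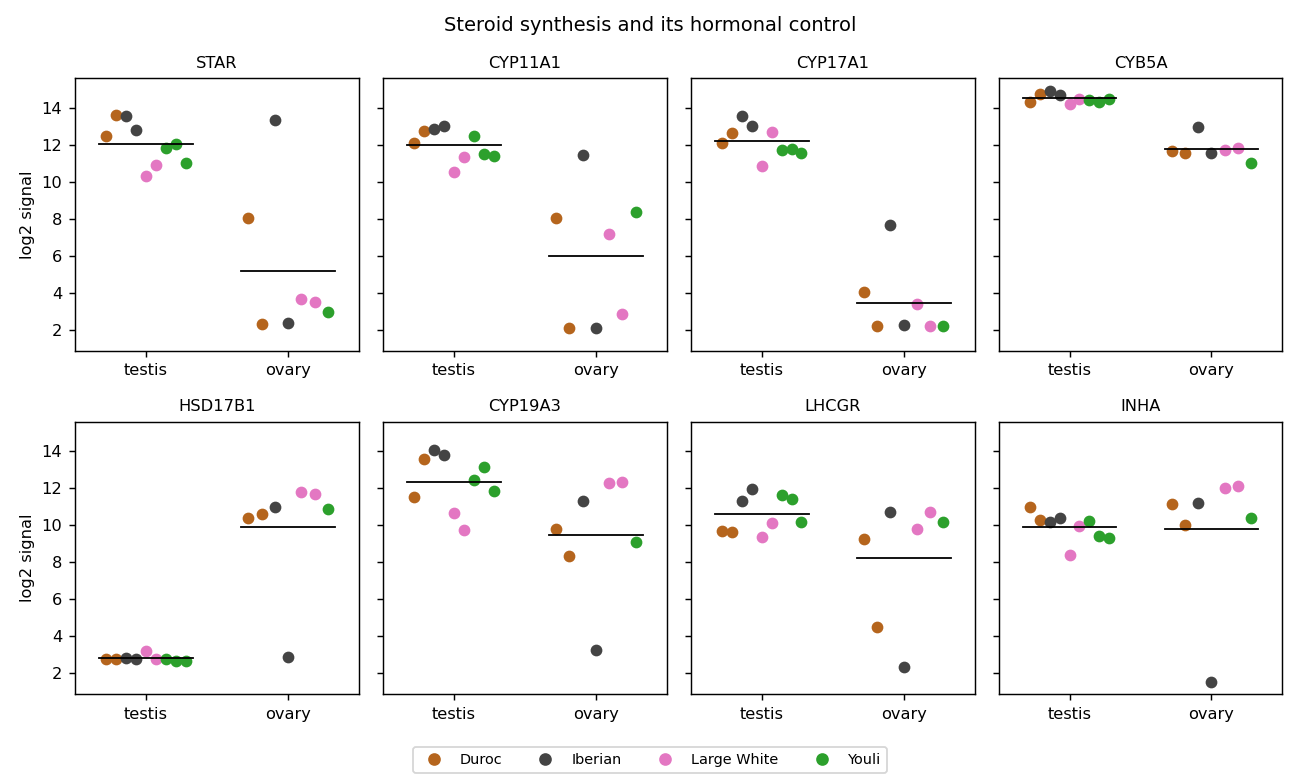
Log2 values of 8 genes of steroid synthesis and its hormonal control in each gonad, testes left and ovaries right in each panel, 1 point per animal with breeds in colours and a bar at the group mean. STAR overlaps between the sexes through 1 ovary at 13.36, CYB5A does not overlap, and LHCGR, CYP19A3 and INHA overlap widely.

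The supply of cholesterol ran with the same sign. Of 23 genes of cholesterol synthesis and uptake, 13 were higher and 1, HSD17B7, was lower in testes, with a median difference of 1.09. ACAT2, the cytosolic thiolase that starts the pathway, had 9.02, 9.24 and 10.76 in testes and 6.07, 6.64 and 8.24 in ovaries (2.73 ± 0.28, adjusted p = 2.11e-05) and did not overlap. SQLE, squalene epoxidase, differed by 2.51 ± 0.46 (adjusted p = 0.00145), TM7SF2, a sterol reductase, by 2.12 ± 0.48 (adjusted p = 0.0056) and SCARB1, the receptor for high density lipoprotein, by 2.11 ± 0.57 (adjusted p = 0.0146), with overlap between the sexes in each. FDFT1, squalene synthase, did not pass the test, with a median of 10.07 in testes and 10.16 in ovaries (-0.03 ± 0.31, adjusted p = 0.952). The list of steroid sulfation and conjugation had 2 higher and 1 lower of 9, near the shares over all genes, with a median difference of 0.05. Without Iberian ovary 25 the counts were 2 and 0. The higher genes were SULT2A1 and PAPSS2, which makes the sulfate donor used by sulfotransferases. PAPSS2 had 9.93, 11.77 and 12.47 in testes and 3.43, 7.63 and 10.51 in ovaries (3.60 ± 0.88, adjusted p = 0.00834).

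Enzymes of detoxification and antioxidant defence were also mostly higher in testes where they were called. Of 28 genes of glutathione and carbonyl detoxification, 10 were higher and 1 was lower, and 12 and 2 without Iberian ovary 25. NQO1, a quinone reductase, had 11.65, 13.16 and 13.73 in testes and 4.10, 9.35 and 9.81 in ovaries (4.07 ± 0.74, adjusted p = 0.00131). EPHX1, an epoxide hydrolase, had 10.20, 11.01 and 12.19 in testes and 6.94, 8.34 and 9.25 in ovaries (2.94 ± 0.22, adjusted p = 1.35e-06). MGST1, a membrane glutathione transferase, differed by 2.50 ± 0.39 (adjusted p = 0.000459), and none of these 3 genes overlapped between the sexes. The gene lower in testes over all 16 gonads was GCLC, the catalytic subunit of the first step of glutathione synthesis, with 7.0, 7.35 and 7.78 in testes and 6.10, 10.94 and 11.17 in ovaries (-2.79 ± 0.61, adjusted p = 0.00445, and -3.44 ± 0.16 without Iberian female 25). GSTA1, an alpha class transferase that also takes part in steroid isomerisation, was bright in both sexes, with medians of 13.28 in testes and 12.75 in ovaries (adjusted p = 0.442).

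Of 22 antioxidant genes 9 were higher and 3 lower in testes, and 11 and 4 without Iberian ovary 25. SOD2, the mitochondrial superoxide dismutase, had 10.11, 10.45 and 10.70 in testes and 8.21, 8.57 and 9.35 in ovaries (1.83 ± 0.12, adjusted p = 4.04e-07). PRDX3, a mitochondrial peroxiredoxin, differed by 1.82 ± 0.23 (adjusted p = 9.93e-05), and CAT, the peroxisomal catalase, by 1.41 ± 0.15 (adjusted p = 2.58e-05). The 3 genes lower over all 16 gonads were MT3, a metallothionein (-4.08 ± 0.50, adjusted p = 7.96e-05), MSRB2, a methionine sulfoxide reductase (-1.41 ± 0.31, adjusted p = 0.00421), and TXN, thioredoxin (-0.97 ± 0.20, adjusted p = 0.00265). MT3 lay between 2.55 and 5.47 in testes and between 6.92 and 9.60 in ovaries, without overlap.

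Mitochondrial and peroxisomal energy genes that were called were mostly higher in testes, with small median differences. Of 66 genes of oxidative phosphorylation, 40 were higher and 2, ATP5O and UQCRB, lower in testes, with a median difference of 0.39, and 42 and 3 without Iberian ovary 25. With arrays centred on their medians 42 were higher and 0 lower, and ATP5O was at -0.16 (limma adjusted p = 0.061). UQCRB lost its call when any of 11 animals was left out, with adjusted p up to 0.086. SDHA, a subunit of complex II, had 10.55, 10.73 and 11.19 in testes and 9.04, 9.50 and 10.08 in ovaries (1.32 ± 0.13, adjusted p = 1.87e-05), and SDHC differed by 1.24 ± 0.15 (adjusted p = 6.07e-05). NDUFA11 and NDUFB4, both of complex I, were 1.24 ± 0.16 and 1.06 ± 0.13 higher (adjusted p = 0.000126 and 6.78e-05). All 4 were without overlap between the sexes. Of 41 genes of fatty acid oxidation and the peroxisome, 24 were higher and 1 was lower, with a median difference of 0.65, and 25 and 3 without Iberian ovary 25. ECI1, an enoyl-CoA isomerase, differed by 1.98 ± 0.20 (adjusted p = 1.92e-05), ETFB, which passes electrons from the dehydrogenases, by 1.72 ± 0.14 (adjusted p = 2.35e-06) and ACAD9 by 1.72 ± 0.27 (adjusted p = 0.000514). The gene lower over all 16 gonads was CPT1C, the brain-type carnitine palmitoyltransferase, with 2.44, 3.13 and 3.76 in testes and 6.19, 6.98 and 8.05 in ovaries, at least 8.29-fold higher in ovaries (adjusted p = 5.38e-07).

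The glycolysis and lactate list had 6 higher and 3 lower of 27, near the shares over all genes. PFKFB4, which makes the activator of phosphofructokinase and is known from testis, had 6.48, 7.56 and 8.35 in testes and 4.08, 4.29 and 5.03 in ovaries (2.92 ± 0.26, adjusted p = 5.74e-06). PFKL, the liver form of phosphofructokinase, lay between 7.11 and 7.86 in testes and between 5.78 and 6.78 in ovaries (1.24 ± 0.15, adjusted p = 7.41e-05), while PFKP, the platelet form, lay between 2.87 and 3.33 in testes and between 5.19 and 6.80 in ovaries, at least 3.24-fold higher in ovaries (adjusted p = 1.22e-06). The glycogen list had 3 higher and 0 lower of 12, among them GYG1, the glycogenin primer (1.40 ± 0.14, adjusted p = 1.7e-05). Among genes listed for adipocytes, 5 of 16 were higher and 2 lower in testes. CIDEA, a lipid droplet protein, had 6.95, 7.73 and 8.28 in testes and 2.87, 3.0 and 3.07 in ovaries, at least 12.5-fold higher (adjusted p = 1.04e-08). SCD and FASN, which make and desaturate fatty acids, were 3.18 ± 0.34 and 2.09 ± 0.18 higher (adjusted p = 2.64e-05 and 4.13e-06), and GPD1, a glycerol phosphate dehydrogenase, was at least 6.44-fold higher (adjusted p = 9.14e-07). The 2 lower genes were PPARG, the adipogenic nuclear receptor, and FABP4, the fatty acid binding protein of adipocytes, which lay between 2.42 and 2.97 in testes and between 2.52 and 4.23 in ovaries. The highest ovary alone lay above the background limit of 4 for FABP4, and without the 3 ovaries that held tract epithelium transcripts its call was lost (-0.77, adjusted p = 0.0688).

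Proteasome genes were mostly higher in testes where they were called, and ribosomal protein genes had no settled direction. Of 40 proteasome genes 21 were higher and 1, the assembly chaperone PSMG3, was lower in testes, with a median difference of 0.37. PSME4, the activator known for its part in spermatogenesis, had 7.25, 8.26 and 9.15 in testes and 5.59, 6.44 and 7.02 in ovaries (1.66 ± 0.25, adjusted p = 0.000382), and PSMD4, the ubiquitin receptor, differed by 1.13 ± 0.09 (adjusted p = 3.7e-06). Of 64 ribosomal protein genes 5 were higher and 8 lower, with a median difference of -0.06, and with arrays centred on their medians these counts were 11 and 1 and the median difference was 0.04, so no direction is given. Chaperones and secretion genes of the endoplasmic reticulum split, with 12 higher and 10 lower of 43. Heat shock chaperones had 9 higher and 3 lower of 33, and 5 and 5 without the 3 testes that held spermatid transcripts. BAG1, a cochaperone, and DNAJA1 were 1.29 ± 0.12 and 1.22 ± 0.12 higher (adjusted p = 8.3e-06 and 1.18e-05), and HSPA8 was lower at -0.55 ± 0.13 (adjusted p = 0.00599).

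**Figure D4:**
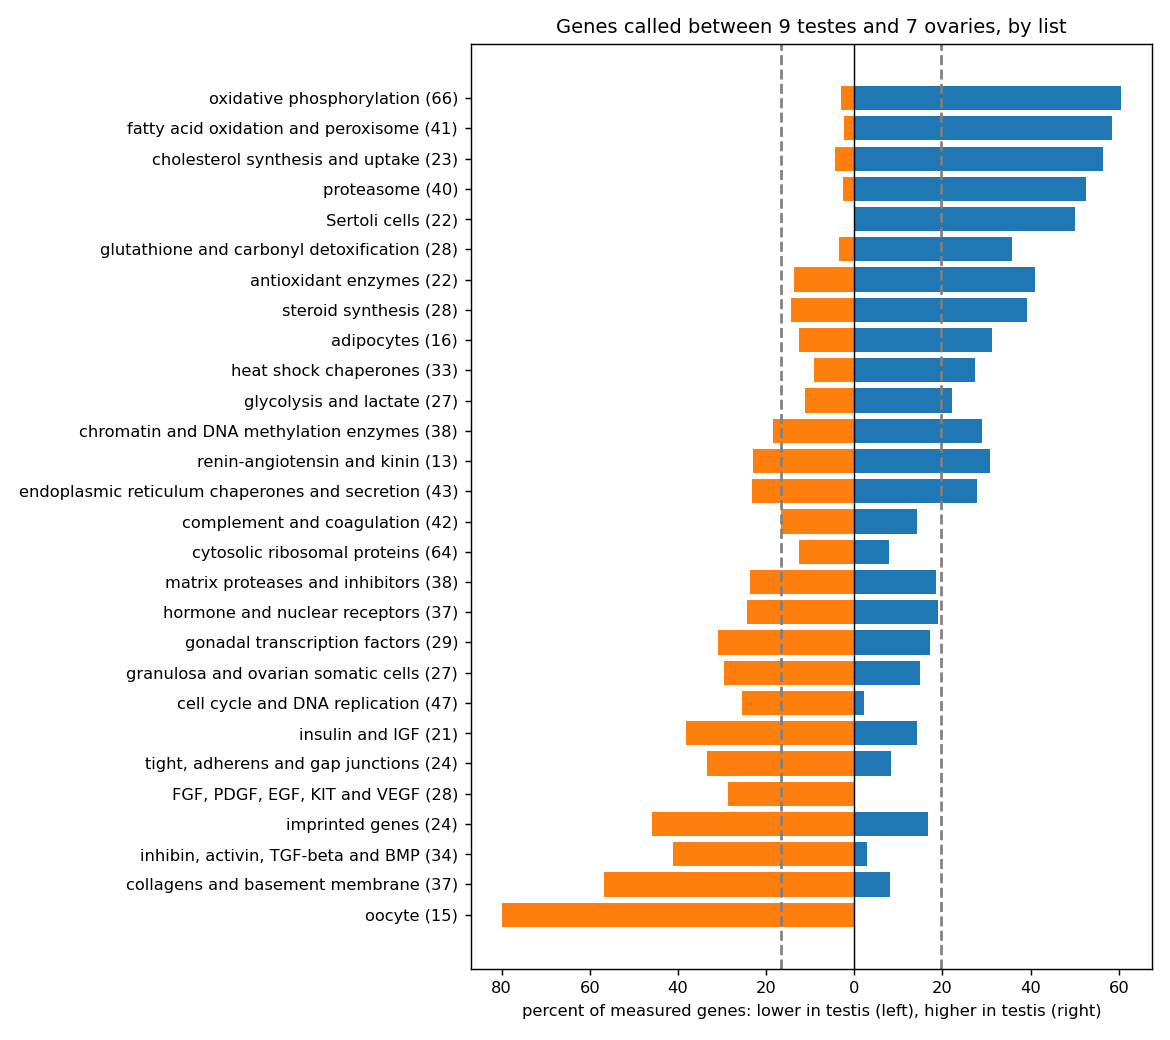
Percent of the measured genes of 28 lists that were higher in testes (right, blue) or lower in testes (left, orange) at an adjusted p under 0.05 over 16 gonads, with the number of genes measured in brackets. The dashed lines give the shares over all 6765 genes, 19.6% higher and 16.6% lower, and 40 of 66 oxidative phosphorylation genes and 21 of 37 collagen and basement membrane genes lie past them.

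Several lists of growth factor signalling had more lower than higher genes in testes, while the MAP kinase list had 6 higher and 5 lower of 19 and the list of cAMP and protein kinase A 4 higher and 1 lower of 21. Of 34 genes of inhibin, activin, TGF-beta and BMP signalling, 1, SMAD1, was higher and 14 were lower in testes, with a median difference of -0.36. The count of 14 fell to 9 without Duroc testis 15, and SMAD1 lost its call when any of 10 animals was left out, with adjusted p up to 0.0888. BMPR1B, a BMP receptor known for its effect on ovulation rate in sheep, had 3.78, 6.01 and 6.83 in testes and 8.09, 8.44 and 8.84 in ovaries (-3.14 ± 0.31, adjusted p = 1.51e-05). GDF9, BMP15 and FST belong to the same list. Of 28 genes of FGF, PDGF, EGF, KIT and VEGF signalling, 0 were higher and 8 lower. EGFR, the receptor of epidermal growth factor, had 7.50, 7.95 and 8.67 in testes and 9.37, 9.86 and 10.18 in ovaries (-1.81 ± 0.18, adjusted p = 1.84e-05), and FGFR2 differed by -2.11 ± 0.38 (adjusted p = 0.00122). Of 11 Notch genes 1 was higher and 4 were lower: HEY2, a target, had 3.92, 5.98 and 7.13 in testes and 9.15, 9.51 and 9.61 in ovaries (-3.45 ± 0.31, adjusted p = 7.59e-06), HES1 and the ligand JAG1 differed by -1.32 ± 0.24 and -0.95 ± 0.20 (adjusted p = 0.00123 and 0.00344, JAG1 with 0.0732 without the 3 ovaries that held tract epithelium transcripts), and LFNG by -0.94 ± 0.30 (adjusted p = 0.0343, but up to 0.0911 when single animals were left out). The higher one was ADAM10, a protease that cleaves Notch receptors (1.57 ± 0.25, adjusted p = 0.000479).

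IGFBP2 and IGFBP5, which bind insulin-like growth factors, were lower in testes. IGFBP2 had 3.28, 4.46 and 5.72 in testes and 9.50, 10.11 and 11.56 in ovaries (-5.66 ± 0.35, adjusted p = 3.45e-07). IGFBP5 had 3.13, 5.11 and 6.42 in testes and 8.16, 9.59 and 10.83 in ovaries (-4.20 ± 0.34, adjusted p = 3.23e-06). Neither gene overlapped between the sexes, and the differences within breeds ran from -4.78 to -7.50 for IGFBP2 and from -3.39 to -4.73 for IGFBP5. The ligand IGF2, with a median of 6.70 in testes and 8.10 in ovaries, did not pass the test (-0.97 ± 0.47, adjusted p = 0.156). Of the 21 genes of the insulin and IGF list, 3 (INSL3, IGF2R and AKT2) were higher and 8 lower, with a median difference of -0.85, and 5 were lower without the Youli ovary.

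Hormone and nuclear receptors were divided, with 7 higher and 9 lower of 37. PPARG had 2.67, 2.80 and 3.43 in testes and 2.79, 7.03 and 9.15 in ovaries, at least 7.1-fold higher in ovaries (adjusted p = 0.000492), with the low ovary again Iberian female 25. ESR1, estrogen receptor alpha, had 2.09, 2.27 and 2.87 in testes and 4.16, 5.75 and 8.93 in ovaries, at least 3.80-fold higher in ovaries (adjusted p = 0.000613). Its highest ovary was Iberian female 25, without which the bound was 2.69-fold (limma adjusted p = 3.31e-05). NR2F1, an orphan receptor, differed by -3.27 ± 0.35 (adjusted p = 3.09e-05) and PTGFR, the prostaglandin F receptor, by -3.48 ± 0.62 (adjusted p = 0.00118). In the other direction, PGRMC1, a haem protein that binds cytochromes of steroid synthesis, had 11.53, 12.14 and 12.58 in testes and 10.25, 10.73 and 11.41 in ovaries (1.32 ± 0.11, adjusted p = 2.62e-06). FSHR, the receptor of follicle-stimulating hormone on Sertoli and granulosa cells, differed by 1.66 ± 0.45 (adjusted p = 0.0144), but the sexes overlapped, within the Youli breed the difference was -1.0, and without the 3 ovaries with tract epithelium transcripts the call was lost (adjusted p = 0.166). PRKACB, a catalytic subunit of the cAMP-dependent kinase downstream of both gonadotropin receptors, had 10.76, 10.93 and 11.26 in testes and 8.96, 9.12 and 9.35 in ovaries (1.84 ± 0.08, adjusted p = 1.44e-08).

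Most genes of the extracellular matrix that were called were lower in testes. Of 37 collagen and basement membrane genes, 3 were higher and 21 lower, with a median difference of -1.01, and 3 and 24 without Iberian female 25. THBS1, thrombospondin, had 3.57, 5.17 and 6.36 in testes and 7.75, 10.86 and 11.48 in ovaries (-5.10 ± 0.60, adjusted p = 5.61e-05). VCAN, the proteoglycan versican, had 3.50, 4.69 and 4.99 in testes and 7.37, 9.68 and 10.74 in ovaries (-4.97 ± 0.47, adjusted p = 9.97e-06). FBLN1, fibulin, had 6.64, 7.62 and 7.88 in testes and 10.70, 11.19 and 11.73 in ovaries (-3.67 ± 0.19, adjusted p = 8.2e-08), and COL6A3, a chain of collagen VI, had 6.75, 7.47 and 7.84 in testes and 10.14, 11.09 and 11.95 in ovaries (-3.52 ± 0.25, adjusted p = 1.16e-06). None of these 4 genes overlapped between the sexes. The 3 higher genes were LUM, lumican (1.59 ± 0.44, adjusted p = 0.0164), COL15A1 (0.96 ± 0.23, adjusted p = 0.00729) and the basement membrane protein NID2 (0.77 ± 0.20, adjusted p = 0.0125). THY1, a surface protein of fibroblasts, neurons and spermatogonia, differed by -3.94 ± 0.27 (adjusted p = 7.75e-07).

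Proteases and their inhibitors split, with 7 higher and 9 lower of 38. TIMP1, an inhibitor of metalloproteases, had 6.03, 7.30 and 8.27 in testes and 9.73, 10.58 and 13.48 in ovaries (-3.57 ± 0.47, adjusted p = 0.000147). Its relative TIMP2 had 11.40, 12.29 and 12.73 in testes and 8.87, 9.56 and 10.50 in ovaries (2.39 ± 0.22, adjusted p = 8.37e-06). The 2 inhibitors thus lay on opposite sides, each without overlap. MMP2, a gelatinase, was lower in testes (-2.20 ± 0.31, adjusted p = 0.000224), and A2M, a broad protease trap secreted by Sertoli cells in the rat, had 13.78, 13.93 and 14.28 in testes and 5.82, 9.82 and 11.54 in ovaries (4.43 ± 0.74, adjusted p = 0.000777).

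**Figure D5:**
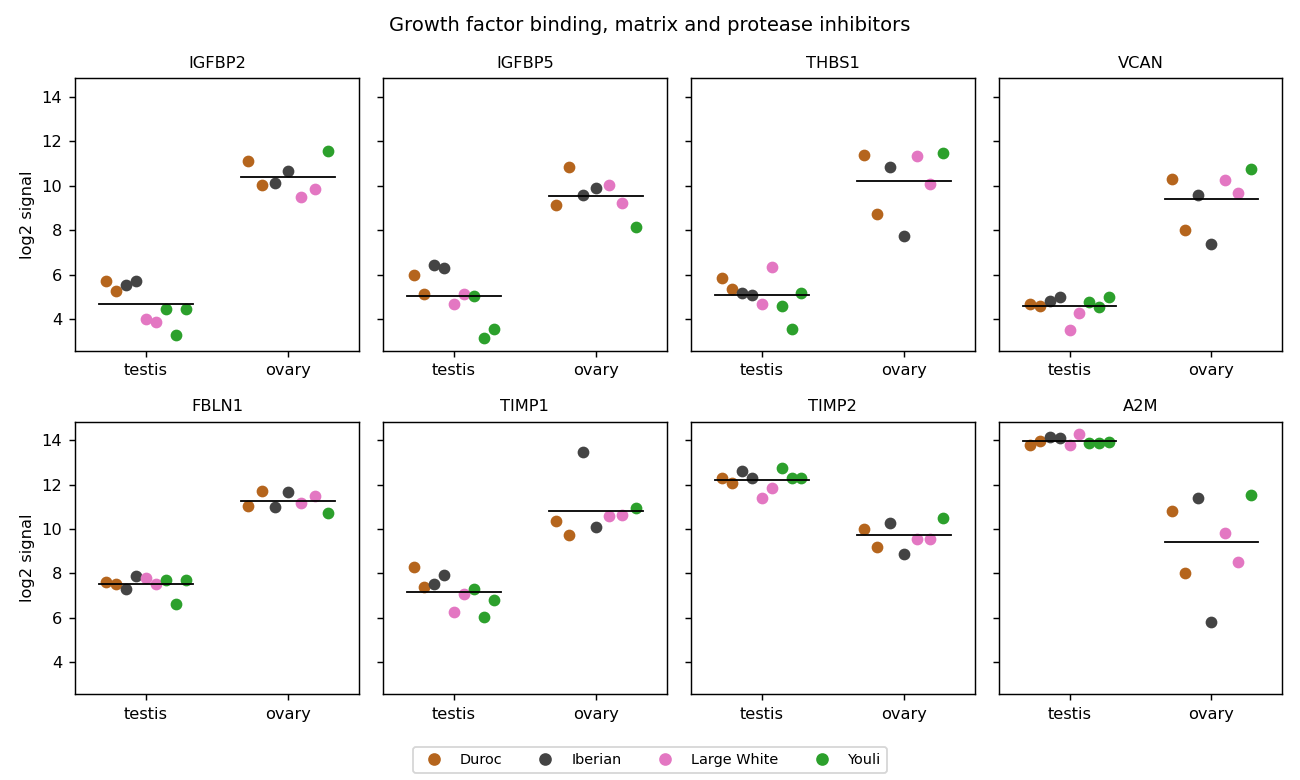
Log2 values of 8 genes of growth factor binding, extracellular matrix and protease inhibition in each gonad, testes left and ovaries right in each panel, 1 point per animal with breeds in colours and a bar at the group mean. IGFBP2, IGFBP5, THBS1, VCAN, FBLN1 and TIMP1 lie lower in all testes than in any ovary, and TIMP2 and A2M lie higher.

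Smooth muscle and contractile genes followed the matrix. Of 21 smooth muscle and peritubular myoid genes 1, PDLIM3, was higher and 13 were lower in testes, PDLIM3 with adjusted p up to 0.0952 when single animals were left out, and the mean over the list was 6.32 to 6.84 in testes, 9.26 in Iberian ovary 25 and 7.36 to 7.88 in the other ovaries. CNN1, calponin, had 2.98, 4.19 and 5.10 in testes and 6.66, 8.41 and 11.17 in ovaries (-4.15 ± 0.52, adjusted p = 9.35e-05, and -3.67 ± 0.30 without Iberian female 25). FLNA, filamin, differed by -2.25 ± 0.19 (adjusted p = 4.66e-06) and TAGLN, transgelin, by -2.44 ± 0.25 (adjusted p = 1.81e-05), both without overlap. The part of muscle content in the matrix differences was not tested.

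Of 24 junction genes 2 (CLDN11 and NECTIN2) were higher and 8 lower in testes, and 14 were not called. Of 13 keratins and epithelial proteins 0 were higher and 4 lower, with a median difference of -1.73, and of -0.17 without the 3 ovaries that held tract epithelium transcripts. CDH1, E-cadherin, had 2.11, 2.22 and 3.20 in testes and 5.91, 8.38 and 11.44 in ovaries, at least 22.8-fold higher in ovaries (adjusted p = 2.12e-05). It was highest in Iberian ovary 25, and the bound over the other 6 ovaries was 16.3-fold (adjusted p = 7.83e-06). GJA5, a gap junction protein of endothelium, had 3.17, 3.64 and 4.43 in testes and 3.61, 7.73 and 8.33 in ovaries (-3.63 ± 0.59, adjusted p = 0.000586). The 2 claudins of the list with the largest differences opposed each other. CLDN11, the main tight junction claudin of Sertoli cells, had 12.77, 13.39 and 13.64 in testes and 6.77, 9.01 and 11.94 in ovaries (3.51 ± 0.70, adjusted p = 0.00245), and CLDN10 had 2.60, 3.16 and 3.79 in testes and 4.87, 7.0 and 9.46 in ovaries, at least 7.29-fold higher in ovaries (adjusted p = 0.000246). CLDN10 too was highest in Iberian ovary 25, and its bound over the other 6 ovaries was 5.4-fold (limma adjusted p = 6.89e-05). Of 22 genes of reproductive tract epithelium 0 were higher and 7 lower, with a median difference of -2.15, and without the 3 ovaries that held these transcripts the counts were 1 and 5 and the median difference -0.10. The count of 7 rested on few animals, since it was 13 without Iberian ovary 22 and 4 without any single one of Large White ovaries 5 and 6, Large White testes 2 and 4 and Iberian testis 24. OVGP1, the oviduct glycoprotein, lay between 1.95 and 5.34 in testes, at 11.81, 13.23 and 14.02 in those 3 ovaries and between 2.12 and 5.85 in the other 4.

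Sertoli cell genes that were called over all 16 gonads were higher in testes. Of 22 measured, 11 were higher and 0 lower, with a median difference of 1.89. Without Iberian ovary 25 the counts were 13 and 1 and the median difference 1.32, the lower gene being VIM, the intermediate filament vimentin (-0.35, adjusted p = 0.0471). The list mean was 7.99 to 8.55 in testes and 5.01 to 6.60 in ovaries. DMRT1, the transcription factor that keeps male fate in the gonad, had 9.12, 10.28 and 11.02 in testes and 2.83, 3.09 and 4.80 in ovaries (6.85 ± 0.31, adjusted p = 2.04e-08). SOX9, which starts Sertoli cell differentiation, had 5.09, 5.76 and 6.03 in testes and 2.24, 2.34 and 2.53 in ovaries, at least 3.20-fold higher (adjusted p = 2.42e-09). CLU, clusterin, a main secreted protein of Sertoli cells, lay between 14.21 and 14.67 in testes and between 9.81 and 13.93 in ovaries (2.58 ± 0.41, adjusted p = 0.000562). None of the 3 overlapped between the sexes. AMH, anti-Mullerian hormone of Sertoli and granulosa cells, was chosen after its values were seen and did not pass the test, with 5.07, 9.33 and 11.05 in testes and 1.69, 7.68 and 8.83 in ovaries (2.03 ± 1.06, adjusted p = 0.186). Its lowest testis was that of Youli male 19.

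Transcription factors of the gonad split, with 5 higher and 9 lower of 29. HOXA9, a homeobox factor of the posterior body axis and the Mullerian duct, had 2.39, 2.43 and 2.57 in testes and 5.01, 6.46 and 8.95 in ovaries, at least 7.06-fold higher in ovaries (adjusted p = 1.04e-05). Its cofactor MEIS1 differed by -3.07 ± 0.51 (adjusted p = 0.000714) and MEIS2 by -2.46 ± 0.34 (adjusted p = 0.000212). NR0B1, the orphan receptor DAX1, was 2.81 ± 0.47 higher in testes (adjusted p = 0.000698), ETV5, a factor of spermatogonial stem cell niches, 2.14 ± 0.38 (adjusted p = 0.00117) and LHX9, an early gonad factor, 1.99 ± 0.32 (adjusted p = 0.000615). GATA4 and NR5A1 are factors of somatic cells in both gonads, NR5A1 being chosen after its values were seen. Neither passed the main test over 16 gonads (1.53 ± 0.88, adjusted p = 0.235, and 1.79 ± 0.64, adjusted p = 0.0559). Without Iberian ovary 25, where they lay at 2.12 and 2.35, they were 0.60 ± 0.19 and 1.13 ± 0.22 higher in testes (adjusted p = 0.0322 and 0.00205). With that ovary kept, NR5A1 passed when the breed term (limma adjusted p = 0.0327) or dim probesets (0.0274) were left out. It also passed with array weights (0.0234) and with arrays centred on their medians (0.0366).

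Germ cell and division genes depended on the animals. Of 19 spermatid and sperm genes 3 (ZPBP, PHF7 and CATSPER2) were higher and 0 lower in testes, with a median difference of 1.58, and without Large White male 2 and Youli males 19 and 20 the median difference was 0.03. The count was 0 without the Youli ovary and 1 without any single one of Duroc ovary 14, Large White ovaries 5 and 6, Large White testis 2 and Youli testis 20. The meiosis list had 2 higher and 0 lower of 5, with a median difference of 0.09. HORMAD1, a protein of meiotic chromosome axes, had 4.50, 6.98 and 9.87 in testes and 2.76, 2.98 and 3.38 in ovaries, at least 9.19-fold higher (adjusted p = 0.00126), without overlap. It lay at 9.77, 9.87 and 9.05 in Large White male 2 and Youli males 19 and 20, and at 4.50 to 7.88 in the other testes. Of 47 genes of the cell cycle and DNA replication, 1, RFC5, was higher and 12 were lower in testes, and without those 3 testes 1 and 21. AURKA, a mitotic kinase abundant in oocytes, had 3.94, 5.07 and 7.54 in testes and 4.39, 9.05 and 10.73 in ovaries (-3.43 ± 0.78, adjusted p = 0.0058), and its lowest ovary was Iberian female 25. PCNA, the sliding clamp of replication, had 8.62, 9.02 and 9.26 in testes and 8.88, 10.74 and 12.27 in ovaries (-1.58 ± 0.32, adjusted p = 0.00297). CDC25B differed by -1.88 ± 0.20 without overlap (adjusted p = 2.46e-05).

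DNA methylation enzymes and imprinted genes were lower in testes in several cases. DNMT1, the maintenance methyltransferase, had 8.85, 9.54 and 10.57 in testes and 9.58, 11.75 and 12.71 in ovaries (-1.97 ± 0.31, adjusted p = 0.000507), and DNMT3A differed by -0.75 ± 0.21 (adjusted p = 0.0189, and 0.0746 without the Youli ovary). The chromatin list as a whole had 11 higher and 7 lower of 38. Of 24 imprinted genes 4 were higher and 11 lower, with a median difference of -0.43, and 3 and 11 without Iberian ovary 25. CALCR, the calcitonin receptor, and DIRAS3, a small GTPase, were at least 4.78-fold and 5.72-fold higher in ovaries, with every testis under 4 (adjusted p = 1.37e-05 and 2.12e-05). TFPI2, a protease inhibitor, had 7.52, 8.39 and 8.64 in testes and 9.84, 10.62 and 11.09 in ovaries (-2.20 ± 0.18, adjusted p = 3.42e-06), and GRB10, an adaptor of the insulin receptor, differed by -1.22 ± 0.27 (adjusted p = 0.00418). The 4 higher genes over all 16 gonads included IGF2R, the clearance receptor of IGF2 (1.11 ± 0.27, adjusted p = 0.00889). The array does not separate parental alleles.

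The complement and coagulation list had 6 higher and 7 lower of 42, near or under the shares over all genes. C9, the last component of the membrane attack complex, had 6.57, 7.43 and 8.62 in testes and 2.50, 2.72 and 3.56 in ovaries, at least 11.5-fold higher (adjusted p = 2.92e-07). C7, an earlier component of the same complex, had 2.70, 3.27 and 3.76 in testes and 2.60, 7.22 and 8.29 in ovaries, at least 6.16-fold higher in ovaries (adjusted p = 0.00161). Its lowest ovary was Iberian female 25, without which the bound was 9.81-fold (limma adjusted p = 3.97e-08). C3 differed by -2.30 ± 0.48 (adjusted p = 0.00329). Leukocyte genes had 0 higher and 1 lower of 23, CXCR4, red blood cell genes 0 and 0 of 5, and endothelial genes 0 higher and 3 lower of 18, TIE1, ENG and LYVE1. ENG and TIE1 lost their calls in some fits with single animals left out, with adjusted p up to 0.0835 and 0.0521. Without the 3 testes that held spermatid transcripts 0 leukocyte and 0 endothelial genes were called by limma, with an adjusted p of 0.0658 for CXCR4 and 0.0503 for LYVE1. The part of these cells in the other differences was not tested.

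The remaining lists were smaller or ran close to the background. Of 17 genes of retinoid metabolism, 2 were higher and 6 lower, and RDH11, a retinal reductase, had 13.19, 13.43 and 14.21 in testes and 8.09, 10.69 and 11.93 in ovaries (3.14 ± 0.45, adjusted p = 0.00024). Opposite to it, RARRES1, a retinoic acid responder, had 6.90, 7.64 and 9.15 in testes and 4.21, 12.58 and 13.68 in ovaries (-3.54 ± 1.07, adjusted p = 0.0257, but up to 0.0739 when single animals were left out). Synaptic and neuronal genes had 0 higher and 5 lower of 25, the largest being SCG5, a secretory chaperone of neuroendocrine cells, with 2.64, 5.96 and 7.64 in testes and 8.52, 9.21 and 9.47 in ovaries (-3.29 ± 0.50, adjusted p = 0.000414). Ciliary genes had 0 higher and 5 lower of 13, with a median difference of -0.50. Without the 3 ovaries that held tract epithelium transcripts the counts were 0 and 3 and the median difference 0.11. Without the 3 testes that held spermatid transcripts the counts were 0 and 5 and the median difference -0.83. The mean over the ciliary list was 8.14, 8.63 and 7.95 in those 3 testes and 6.91 to 7.27 in the other testes. In ovaries it was 9.39, 8.56 and 8.86 in those 3 and 7.41 to 7.58 in the other 4. The WNT list had 0 higher and 3 lower of 15, with FZD5, a WNT receptor, at 6.01 to 7.90 in testes and 8.50 to 11.60 in ovaries (-2.71 ± 0.43, adjusted p = 0.000524). AQP8, the only aquaporin called of 5, reached 7.96 in testes but lay under 4 in 3 of them and in every ovary (at least 2.79-fold higher, adjusted p = 0.00825, and 0.0729 without the 3 ovaries that held tract epithelium transcripts). In the renin-angiotensin and kinin list 4 were higher and 3 lower of 13, and besides AGT they included ENPEP, the aminopeptidase that trims angiotensin (-2.89 ± 0.49, adjusted p = 0.000764), and EDNRA, the endothelin receptor (2.28 ± 0.47, adjusted p = 0.00288).

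The sex chromosome genes were a small set whose difference could be set beside other tissues of the same pigs. Between males and females, limma called 16 of 23999 probesets in the hypothalamus (0.0667%), 120 in the adenohypophysis (0.5%) and 12 in backfat (0.05%). EIF1AY was called in all 3, with every female under 4, and in the gonads it was at least 33.9-fold higher in testes. KDM6A, an X-linked histone demethylase that escapes X inactivation in other mammals, had 6.97, 7.20 and 7.52 in testes and 7.64, 7.77 and 8.32 in ovaries (-0.69 ± 0.10, adjusted p = 0.000306). It was also lower in males in the hypothalamus and the adenohypophysis, by differences of -1.07 and -1.02. TXLNG, another X-linked gene, differed by -1.03 ± 0.15 in gonads (adjusted p = 0.000287) and by -0.67 in the hypothalamus. ZFX, an X-linked zinc finger gene, ran the other way in gonads, with 5.36, 7.05 and 8.01 in testes and 3.29, 4.16 and 5.41 in ovaries (2.26 ± 0.34, adjusted p = 0.000374). Of the 44 genes called between the sexes in the adenohypophysis, 14 were called in the same direction in the gonads and 10 in the opposite one. Over all genes with a symbol, 19.6% were called higher and 16.6% lower in testes, so many such matches would arise without any link between the tissues.

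The difference between testis and ovary was also compared across the breeds. A sex by breed term was called for 49 of 23999 probesets (0.204%), with 2184 at an unadjusted p under 0.05. Without Iberian ovary 25 it was called for 405, and with dim probesets left out for 0 of 13930 (limma, 1312 at an unadjusted p under 0.05). For each of the 20 leading genes the difference had the same sign in all 4 breeds. These genes were picked for the largest differences over the same arrays, so their shared sign does not test agreement between breeds. NDP and PTHLH had the lowest adjusted p for the term among named genes and were chosen after their values were seen. NDP, the ligand norrin, lay above 4 only in the single Youli ovary, at 4.57, and PTHLH, the parathyroid hormone-like peptide, only in the 2 Iberian ovaries, at 5.31 in both. With 1 Youli ovary and 2 gonads of each sex in the other breeds, the term rests on few animals.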

How the data were processed

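RNA of part of each gonad was hybridised to Affymetrix Porcine GeneChips. The authors normalised all 80 arrays together by GCRMA, a background correction and quantile step that summarises the probes of a probeset, with log2 values as deposited. GCRMA compresses signals near background, and the quantile step forces arrays of unlike tissues to 1 distribution. A log2 value under 4 was taken as near background, and a difference against it as a bound. The number of arrays limits the precision. The 124 control probesets were left out of 24123, and 23999 were kept. Of these, 10069 carried 1 gene symbol, 198 carried several and 13732 none in the platform annotation.

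The sexes were compared with limma 3.58.1 in R 4.3.3 (lmFit and eBayes) with breed as a covariate, two-sided, with Benjamini-Hochberg adjustment over all 23999 probesets and a threshold of 0.05. The same fit was made in hypothalamus, adenohypophysis and backfat of the same pigs, and a sex by breed term was tested in the gonads. The test code was run on simulated data first. The probeset with the highest mean over the 16 gonads stood for a gene.

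Genes named were the markers, the 10 largest differences in each direction called with and without Iberian ovary 25, up to 4 called genes per list and direction and 3 uncalled ones of highest mean, sex-linked genes, and genes called in other tissues. A few others were chosen after their values were seen. The members and the gene lists were chosen with earlier results of these data known. Alternatives left out each gonad in turn, the breed term or dim probesets, or changed the variance model, array weights and scaling, and 2 that left out 3 ovaries or 3 testes were chosen after seeing the data. Titles and fields of the thyroid arrays conflict, and that tissue was not used here. A search of promoters for motifs was not run.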

Additional observations from a re-analysis of the deposited data

Results flagged for a closer look

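For the genes named in the text other than HSD3B1, the values of the 9 testes and the 7 ovaries were searched for a single array far from the others of its sex, by the gap to its nearest neighbour divided by the range, and the critical values are those of Dixon. Chance flags about 1 in 20 groups. Of 334 groups of values 57 held such an array, 26 of them through the ovary of Iberian female 25 and 11 through that of Iberian female 22.

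The ovary of Iberian female 25 lay far below the other ovaries for the oocyte genes DPPA5 at 1.97, NANOS1 at 4.47, KPNA7 at 3.24, ZP3 at 2.22, ZP4 at 2.71, PADI6 at 2.20 and BMP15 at 1.97. It was also far below them for genes of follicle and steroid cells, with FST at 2.22, HSD17B1 at 2.88, SERPINE2 at 2.99, INHA at 1.54, INSL3 at 2.03, AMH at 1.69, GATA4 at 2.12 and NR5A1 at 2.35. The remaining low values of that ovary were NQO1 at 4.10, GCLC at 6.10, ACAD9 at 3.89, PPARG at 2.79, NECTIN2 at 4.05, GJA5 at 3.61, AURKA at 4.39, DNMT1 at 9.58, C7 at 2.60, RARRES1 at 4.21 and VIM at 13.6.

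The ovary of Iberian female 22 lay far above the other ovaries for 11 genes, among them genes of steroid synthesis. These were CYP17A1 at 7.70, CYB5A at 13, SQLE at 7.84, DHRS4 at 10.48, LOC100623656 at 8.13, FASN at 8.45, SOD2 at 9.35, PRDX3 at 11.76, PTGFR at 11.52, TIMP1 at 13.48 and C9 at 3.56.

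Among the other ovaries, PSMG3 stood apart in Duroc female 13 at 6.88, MGST1 and DMRT1 in Duroc female 14 at 8.63 and 4.80, SULT2A1 in Large White female 6 at 2.19, and PHF7, SCG5 and NDP in the Youli female at 1.95, 8.52 and 4.57. Among the testes, Large White male 2 stood apart for DHRS4 at 13.48, HSD17B1 at 3.19, CAT at 12.12 and VCAN at 3.50, and Large White male 4 for ESRP1 at 3.18 and PPARG at 3.43. The other testes that stood apart were Duroc male 12 for TSPO at 6.14, Duroc male 15 for GSTA1 at 11.38, Iberian male 23 for DPPA5 at 2.10 and LYVE1 at 4.43, Iberian male 24 for FST at 2.62, Youli male 18 for ESR1 at 2.87 and Youli male 19 for FBLN1 at 6.64. Values under 4 are near background.

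The difference between testis and ovary itself differed between breeds for 49 probesets by the interaction test of limma over 16 gonads, for 405 without Iberian ovary 25 and for 0 of 13930 with dim probesets left out (1312 at an unadjusted p under 0.05). NDP and PTHLH were among them, both with an adjusted p of 4.45e-05.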

How the results depend on the processing

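Apart from HSD3B1, 167 genes were named, of which 153 were called, and 133 of these kept their direction and their call under every alternative run for them. Among the 167, INHA and FDFT1, which were not called, changed sign. Leaving out single gonads gave -1.19 (Iberian ovary 25) to 0.69 (Iberian ovary 22) for INHA, with -0.23 and -0.27 without Iberian testes 23 and 24, and INHA was -0.75 with array weights and -0.48 without the 3 ovaries that held tract epithelium transcripts. FDFT1 ranged over -0.24 (without Iberian ovary 25) to 0.19 (without Iberian ovary 22), with 0.09, 0.11 and 0.01 without Duroc ovary 14, Duroc testis 12 and Large White testis 2, and was 0.08 with arrays centred on their medians and 0.03 without the 3 testes that held spermatid transcripts. The counts of probesets called, higher and lower stayed within 1.5 times their value under every alternative, with totals of 5920 to 7338 when single gonads were left out. The sex by breed term of limma called 405 probesets without Iberian ovary 25, against 49 with it, and 0 of 13930 with dim probesets left out (1312 at an unadjusted p under 0.05). The fit with dim probesets left out kept only probesets above a log2 value of 4 in at least 7 gonads. It tested 4 of the 15 oocyte genes and 6 of the 19 spermatid genes. Of those tested, 3 oocyte genes were lower and 1 spermatid gene was higher in testes. Without the 3 testes, 5 granulosa genes, 5 junction genes, 3 tract epithelium genes and 21 cell cycle genes were lower in testes, and without the 3 ovaries 0 spermatid genes were higher. Leaving out single gonads gave 9 (without Duroc testis 15) to 14 lower genes of the TGF-beta list, 5 (without the Youli ovary) to 9 of the insulin and IGF list and 4 to 13 (without Iberian ovary 22) of the tract epithelium list. It gave 0 (without the Youli ovary) to 3 higher spermatid genes. The cause of these shifts was not tested. No paired analysis was possible because the testes and ovaries came from different animals. Signals near background limit the sizes of 47 called genes higher in testes and 99 lower, which are bounds.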
